A study of Mus musculus with 6 samples.

Results

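Autophagy, the route by which a cell wraps part of its cytoplasm in a double membrane and delivers it to the lysosome, is described here through 34 genes that act outside the Beclin-1 complex. They cover the kinase complex that starts the process, the proteins that supply membrane and lipid, the conjugation enzymes, the ATG4 proteases, the ATG8 proteins, the cargo receptors and a tether. Members were taken from the table of gene expression by symbol, and each of the 34 symbols matched 1 of its 29018 genes. The libraries came from osteoblasts, the bone-forming cells, isolated from the skull vault (calvaria) of neonatal mice, which had then been made to differentiate along the bone lineage. There were 3 libraries of polyadenylated RNA from wild type (WT) cells and 3 from cells with a knockout (KO) of NDR1, a kinase encoded by Stk38. The labels name no further allele, agent or treatment in either group, and the strain, sex, exact age, allele design and number of animals are not given in the sources used here. Nothing states that replicates came from separate animals or cultures, so p-values cover no more than the spread among the 6 libraries, and that spread may be technical. The title of the study ties the kinase to osteoblast differentiation through PI3K-AKT and through autophagy associated with Beclin-1.

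Starvation or stress activates the ULK kinases, which with their partners FIP200, ATG13 and ATG101 mark the site where a new membrane grows. ATG9 vesicles, the lipid channel ATG2 and the WIPI proteins enlarge it, and a pair of ubiquitin-like conjugation systems attaches LC3 and GABARAP proteins to its lipids. Cargo receptors bind both the cargo and these proteins. In osteoblasts autophagy has been linked to mineral formation and to survival. Many of its steps are set by phosphorylation, lipidation and protein turnover, which messenger RNA (mRNA) does not report.

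Total counts per library ran from 61461870 to 76159034. Stk38 itself stood at 50.3, 47.9 and 52.5 CPM in the KO libraries and 73.1, 77.4 and 79.4 CPM in the WT libraries, where CPM are counts relative to a library size scaled by TMM, a factor that corrects for library composition. Its reads were lower in every KO library but still present. All 10 osteoblast markers were read, with a summed level of 7794 to 8035 FPKM (fragments scaled to transcript length and library size) in KO and 9157 to 9377 FPKM in WT. This list held 1 gene that was called higher and 5 called lower in KO. Markers of other cells differed between the genotypes. Of 15 macrophage markers 14 were higher in KO, with none at 0 and a summed level of 639.8 to 713 FPKM against 248 to 325 FPKM. Of 7 adipocyte markers 6 were lower, with a sum of 31.7 to 33.4 against 48.2 to 50.8 FPKM. Most of that sum was Lpl and Cebpa, with log2 changes (KO over WT) of -1.05 and -0.24. Adipoq, Plin1, Cidec and Fabp4, all at low levels, had larger changes of -4.41, -5.57, -7.81 and -3.50. Of 5 osteoclast markers tested 2 were lower, with a sum of 144 to 149 against 225 to 229 FPKM. The lower genes were Ctsk, which held most of that sum, and Mmp9. Acp5 (log2 change 0.07), Atp6v0d2 (0.72) and Ocstamp (-1.79) were not called. The 5 endothelial markers (3 lower) summed to 3.05 FPKM or less and the 8 of skeletal muscle (6 tested, 2 lower) to 5.81 FPKM or less. Sex-linked genes differed as well. Xist, the RNA of the inactive X chromosome, stood at 388 ± 7.11 CPM in KO and 106 ± 5.99 CPM in WT (SD, n = 3), and the Y-linked gene Ddx3y at 37.9 ± 1.69 against 62.6 ± 3.06 CPM. The part of these differences in the results below was not tested.

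Most of the autophagy genes were not called different between KO and WT. Of the 34 members, all of which passed the filter on low counts, 4 were lower and 1 was higher in KO. Those that fell were the kinase genes Ulk1 and Ulk2, Calcoco1, which encodes a receptor, and Atg2b, which encodes a lipid channel. The protease gene Atg4a rose. Called here means a Benjamini-Hochberg adjusted p under 0.05 over all 18221 genes tested, in edgeR's quasi-likelihood test on counts. The 5 calls are 14.7% of the members, where 22.9% of all genes tested were called. By direction, 11.7% of all genes were lower and 11.2% higher. The 3 KO levels lay wholly above or below the 3 WT levels for 10 members (29.4%), against 38.2% of all genes. KO was above in 3 of them (19.2% of all genes) and below in 7 (19.1%). An unadjusted p under 0.05 was reached by 9 members (26.5%), against 33.2% of all genes. The median log2 change of the members was -0.04, with a range of -0.31 to 0.25, and that of all genes was 0.00380. In size without sign, the median was 0.0767 for the members and 0.168 for all genes.

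These genes were measured with more precision than most. Their median level was 49.9 CPM, against 12.3 CPM for all genes tested, and the lowest count of any member in a library was 336. The median standard error (SE) of the log2 change was 0.0506 for the members and 0.0970 for all genes. All 34 members had a 95% interval that lay within 1.5-fold of no change in either direction, as did 57.5% of all genes. Of the 29 members that were not called, 27 had an interval within 1.25-fold of no change, the exceptions being Atg10 (-0.07 to 0.57) and Atg4d (-0.35 to 0.03). An interval this wide leaves room for smaller differences that 3 libraries per group did not resolve. Libraries of whole cultures do not separate a change in the share of a cell type from a change in RNA per cell.

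**Figure D1:**
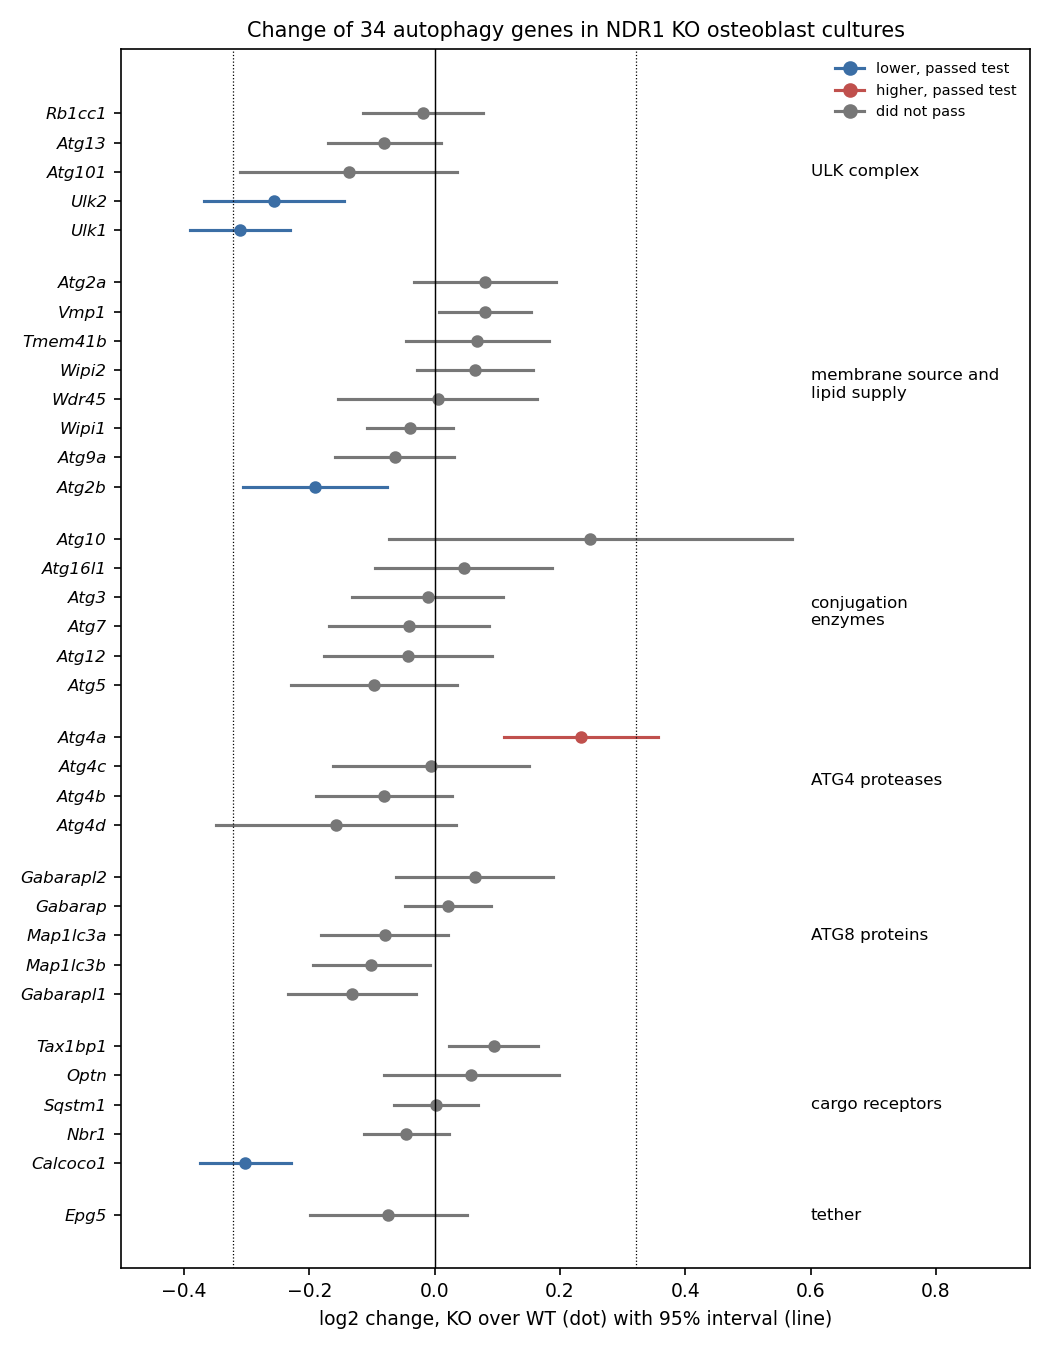
Log2 change of each member in KO over WT (dot) with its 95% interval (line), grouped by role, with dotted lines at 1.25-fold in either direction. Ulk1, Ulk2, Calcoco1 and Atg2b lie to the left with intervals below 0, Atg4a lies to the right, and most other intervals cross 0.

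Both kinase genes of the ULK complex fell in KO, while their partners were not called. Ulk1 stood at 58.9, 59.4 and 57.4 CPM in the KO libraries and 72.3, 72.6 and 73.0 CPM in the WT libraries. The WT libraries were all higher than the KO libraries, with a gap far wider than the spread within either group. The log2 change was -0.31 ± 0.04 (SE), a ratio of 0.806, with a 95% interval of -0.39 to -0.23 (edgeR, Benjamini-Hochberg adjusted p = 1.21e-04). Ulk2, which encodes a kinase with overlapping function, stood at 79.1, 82.3 and 90.4 CPM in the KO libraries and 96.6, 101 and 103 CPM in the WT libraries. KO replicate 3 was the highest of its group and came nearest to the WT libraries, though the groups did not overlap. The log2 change of Ulk2 was -0.26 ± 0.05 (edgeR, adjusted p = 0.00410). Fitted with limma to log2(FPKM + 1) and no filter on low values, Ulk2 was not called (log2 change -0.20, adjusted p = 0.0651). Its adjusted p ran from 5.84e-06 to 0.0651 over 15 alternatives to the reported fit.

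The proportion of Ulk1 to Ulk2 was not separated between the genotypes. In FPKM, which allow genes of different length to be set side by side, Ulk1 made up 39.2 ± 1.99% of the pair in KO and 40.0 ± 0.721% in WT (SD, n = 3). That difference of -0.856 percentage points was within the spread between libraries (exact two-sided permutation test, p = 0.7), and without KO replicate 3 it was 0.275 points. Atg13, the regulatory subunit that links the kinases to FIP200, stood at 50.6, 51.2 and 52.1 CPM in the KO libraries and 53.2, 55.4 and 54.1 CPM in the WT libraries. Its KO levels all lay below the WT levels, but the log2 change of -0.08 ± 0.04 was not called (edgeR, adjusted p = 0.201). Atg101, which stabilises ATG13, was at -0.14 ± 0.08 and Rb1cc1, which encodes the scaffold FIP200, at -0.02 ± 0.04, both with overlapping groups. Summed over its 5 genes, the complex reached 46.5, 48.0 and 47.8 FPKM in the KO libraries and 50.8, 51.5 and 53.7 FPKM in the WT libraries. Each KO sum was lower than each WT sum. All 5 log2 changes were below 0 after TMM, but on library totals without TMM that of Rb1cc1 was 0.03.

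**Figure D2:**
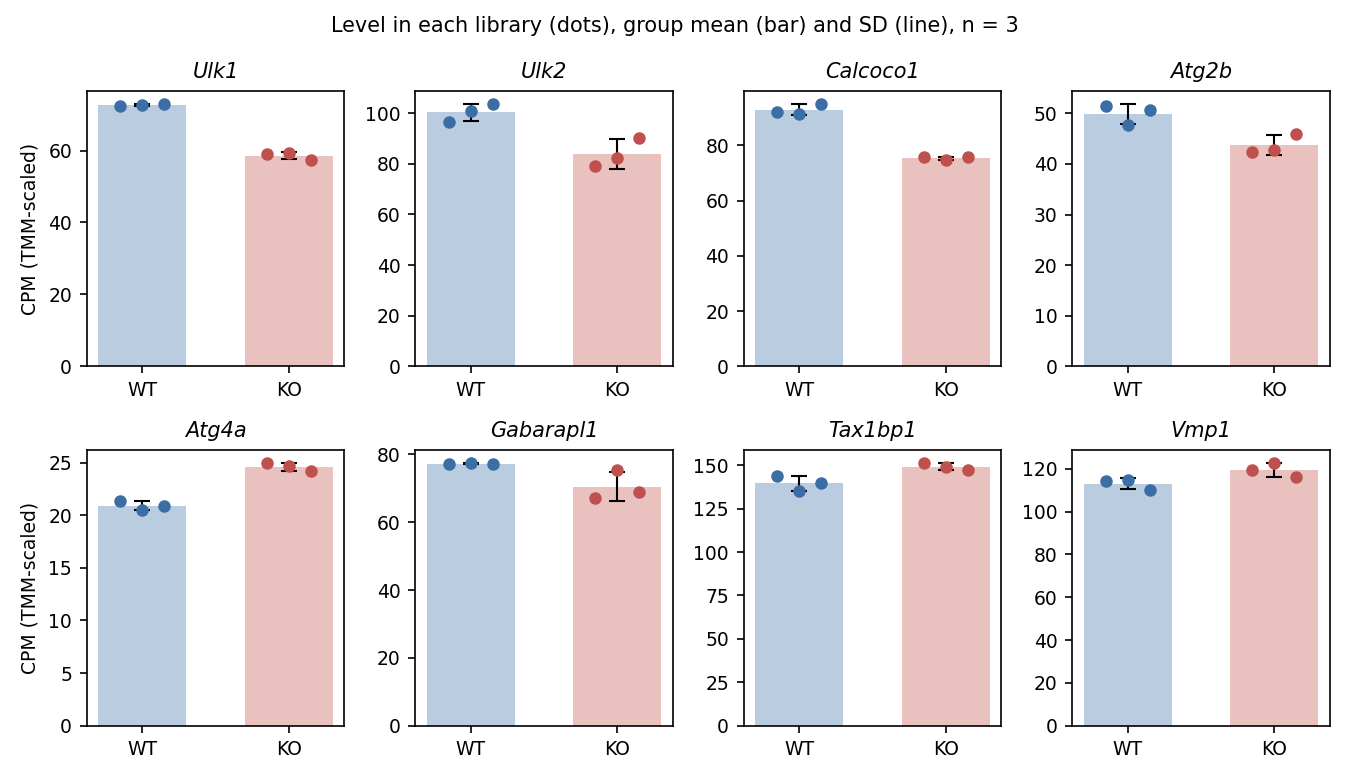
CPM after TMM of 8 members in each library (dots), with the group mean (bar) and SD (line), n = 3 per group. The groups do not overlap in any of the 8 panels, and the gap is widest relative to the spread for Ulk1 and Calcoco1.

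Among the 8 genes that bring membrane and lipid to the growing structure, only Atg2b was called. ATG2A and ATG2B are rod-shaped proteins that carry lipids from the endoplasmic reticulum. Atg2b stood at 42.4, 42.7 and 46.0 CPM in the KO libraries and 51.4, 47.6 and 50.7 CPM in the WT libraries. The groups did not overlap, and WT replicate 2 lay nearest to the KO libraries. Its log2 change was -0.19 ± 0.05 (edgeR, adjusted p = 0.0232). Atg2b was not called without KO replicate 1, KO replicate 2, WT replicate 1 or WT replicate 3 (adjusted p = 0.0870, 0.0790, 0.0890 and 0.0809). With limma on log2(FPKM + 1), where the mean FPKM had to reach 1, the log2 change was -0.11, and it was -0.14 in edgeR without TMM, neither of them called (adjusted p = 0.138 and 0.0709, in a range of 0.00603 to 0.215 over the alternatives).

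Its paralog Atg2a pointed the other way without being called, at 51.8, 48.6 and 47.6 CPM in the KO libraries and 48.4, 46.9 and 44.7 CPM in the WT libraries and a log2 change of 0.08 ± 0.05 (edgeR, adjusted p = 0.316). As a share of the summed FPKM of the pair, Atg2a made up 68.1, 66.6 and 64.4% in the KO libraries and 62.2, 63.3 and 60.7% in the WT libraries. The shares did not overlap between the groups and differed by 4.30 percentage points. By exact permutation (two-sided) p was 0.1, and no lower value is possible with 3 libraries a group. It was 0.222 after Benjamini-Hochberg adjustment over the 20 shares computed. This pair and the ATG4 genes were taken up as shares after their changes had been seen. The shares of Wipi1 and Wipi2, and of the cargo receptors other than Calcoco1, were not planned either.

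Vmp1 encodes a scramblase that works with ATG9 and ATG2 and moves lipids between the membrane leaflets. It stood at 119.6, 123 and 116 CPM in the KO libraries and 114, 115 and 110.1 CPM in the WT libraries. The KO libraries were all slightly higher, by 0.08 ± 0.03 on the log2 scale (edgeR, adjusted p = 0.118). The same gene was called in edgeR on library totals without TMM (log2 change 0.13, adjusted p = 0.0216) and by limma on log2(FPKM + 1) (adjusted p = 0.0293), while over all alternatives this p lay between 0.0216 and 0.318. The other scramblase gene Tmem41b was at 0.07 ± 0.05. Atg9a, which encodes the membrane protein of the seed vesicles, was at -0.06 ± 0.04. The 3 members from the WIPI family, whose proteins read the lipid PI3P made by the Beclin-1 complex, were at -0.04 ± 0.03 (Wipi1), 0.06 ± 0.04 (Wipi2) and 0.00 ± 0.07 (Wdr45). These 5 genes had overlapping groups and were not called (edgeR, adjusted p = 0.327 or more). The fourth WIPI gene, Wdr45b, which is no member and was counted with fusion and tethering, stood at 63.7, 65.1 and 68.1 CPM in the KO libraries and 67.3, 76.6 and 73.4 CPM in the WT libraries. Its groups overlapped, and its log2 change of -0.14 ± 0.05 was not called (edgeR, unadjusted p = 0.0200, adjusted p = 0.0764). Summed over the 8 members, the level was 98.1, 98.4 and 96.7 FPKM in the KO libraries and 92.8, 95.1 and 92.6 FPKM in the WT libraries, higher in each KO library on this scale, which does not use TMM.

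None of the 6 conjugation genes was called. ATG7, an E1-like enzyme, and the E2-like ATG3 and ATG10 join LC3 to lipid and ATG12 to ATG5, and ATG16L1 places the resulting complex on the membrane. Atg5 stood at 27.9, 28.3 and 27.7 CPM in the KO libraries and 28.3, 32.0 and 29.4 CPM in the WT libraries. KO replicate 2 and WT replicate 1 were nearly equal, the other WT libraries were higher, and the log2 change of -0.10 ± 0.06 was not called (edgeR, adjusted p = 0.300). Atg16l1 stood at 31.3, 31.1 and 30.8 CPM in the KO libraries and 32.7, 29.6 and 28.0 CPM in the WT libraries, with overlapping groups and a log2 change of 0.05 ± 0.06 (edgeR, adjusted p = 0.677). Atg7 was at -0.04 ± 0.06, Atg12 at -0.04 ± 0.06 and Atg3 at -0.01 ± 0.05. Atg10 was the least abundant member in CPM, at 7.59 ± 0.339 CPM in KO and 6.39 ± 1.24 CPM in WT (SD, n = 3). WT replicate 3 was its lowest library at 5.01 CPM, and its log2 change of 0.25 ± 0.14 was the least precise of the 34. The 6 genes summed to 38.4, 39.5 and 40.1 FPKM in KO and 38.1, 39.7 and 37.3 FPKM in WT, sets that overlapped.

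Atg4a was the single member that rose. The ATG4 proteases trim newly made LC3 and GABARAP proteins so that they can be joined to lipid, and later release them. Atg4a stood at 24.9, 24.7 and 24.2 CPM in the KO libraries and 21.4, 20.5 and 20.8 CPM in the WT libraries. Every KO library was higher than every WT library, and the log2 change was 0.23 ± 0.06 (edgeR, adjusted p = 0.0113). It was called in all 15 alternatives, with adjusted p from 0.00190 to 0.0496. Reads that fit both Atg4a and its processed copy Atg4a-ps on chromosome 3 may have been counted for either. The copy held 0.998 ± 0.392 CPM in KO and 1.29 ± 0.745 CPM in WT, and the 2 summed to 25.9, 25.3 and 25.6 CPM against 21.9, 22.6 and 22.1 CPM, a log2 ratio of means of 0.21. Atg4a lies on the X chromosome, where 15.5% of 613 tested genes were higher in KO (median log2 change 0.02), and the part of the difference in sex-linked genes given above in its level was not tested. Wdr45, the other X-linked member, did not differ beyond its spread.

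The other ATG4 genes were not called, with log2 changes of -0.08 ± 0.05 (Atg4b), -0.01 ± 0.07 (Atg4c) and -0.16 ± 0.09 (Atg4d). Within the family, Atg4a made up 40.3, 38.9 and 38.6% of the summed FPKM in the KO libraries and 35.9, 33.0 and 34.5% in the WT libraries. Atg4b, whose protein cuts the widest range of ATG8 proteins, made up 29.7 ± 0.947% in KO and 32.4 ± 0.703% in WT (SD, n = 3). Neither share overlapped between the groups (exact two-sided permutation test, p = 0.1 for each, the smallest possible, and 0.222 adjusted over the 20 shares). The share of Atg4d was also apart (8.21 ± 0.695% against 9.46 ± 0.270%), and that of Atg4c overlapped. Shares do not depend on how the libraries are scaled.

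The 5 genes that encode ATG8 proteins, the tags on the autophagosome membrane, were not called. Gabarap, the most abundant of the 34 members per length, stood at 311, 320.2 and 306 CPM in the KO libraries and 298, 319 and 306 CPM in the WT libraries, and its log2 change was 0.02 ± 0.03 (edgeR, adjusted p = 0.687). The groups overlapped. Map1lc3b, which encodes LC3B, the protein most often used to follow autophagy, stood at 162, 159 and 156 CPM in the KO libraries and 159.7, 179.6 and 173 CPM in the WT libraries. WT replicate 1 fell among the KO libraries and the other two WT libraries were higher. The log2 change was -0.10 ± 0.04 (edgeR, adjusted p = 0.119), and without WT replicate 1 the gene was called (log2 change -0.15, adjusted p = 0.0158, the lowest in a range that reached 0.603). The exons of Map1lc3b overlap those of Zcchc14 on the opposite strand, a gene that fell by 0.50 on the log2 scale, and the sources used here do not state that counting used strand, so reads of the pair may have been mixed.

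Gabarapl1, an ATG8 gene known to respond to FOXO transcription factors, stood at 67.1, 75.4 and 69.1 CPM in the KO libraries and 77.2, 77.5 and 77.1 CPM in the WT libraries. The WT libraries were nearly identical, and all 3 KO libraries were lower, KO replicate 2 least so. The log2 change of -0.13 ± 0.05 was not called (edgeR, adjusted p = 0.0642). It was called without KO replicate 2 (log2 change -0.18, adjusted p = 0.00950), in DESeq2 (0.0331) and in edgeR with robust dispersion (0.0417), in a range up to 0.373. Map1lc3a, which encodes LC3A, stood at 48.2, 51.1 and 49.96 CPM in the KO libraries and 53.3, 50.5 and 53.9 CPM in the WT libraries, and Gabarapl2, whose protein is also called GATE-16, at 44.7, 40.7 and 46.2 CPM in the KO libraries and 41.5, 43.3 and 41.1 CPM in the WT libraries. Both had overlapping groups, with log2 changes of -0.08 ± 0.05 and 0.06 ± 0.06 (edgeR, adjusted p = 0.264 and 0.489).

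Within the ATG8 family the share of Gabarap was higher, and that of Gabarapl1 lower, in each KO library. By FPKM, Gabarap held 59.5, 59.3 and 58.6% of the family's summed FPKM in the KO libraries and 56.9, 58.3 and 57.1% in the WT libraries. Gabarapl1 held 11.7, 12.8 and 12.1% in KO and 13.5, 13.0 and 13.2% in WT. Both sets of shares were apart, by 1.69 and -0.999 percentage points (exact two-sided permutation test, p = 0.1 for each, the smallest possible, and 0.222 adjusted over the 20 shares). The shares of Map1lc3a (14.7 ± 0.279% against 15.3 ± 0.791%), Map1lc3b (7.39 ± 0.199% against 7.82 ± 0.310%) and Gabarapl2 (6.58 ± 0.543% against 6.21 ± 0.110%) overlapped between KO and WT. The whole family summed to 273, 282 and 269 FPKM in KO and 263, 275 and 269 FPKM in WT, sets that overlapped.

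**Figure D3:**
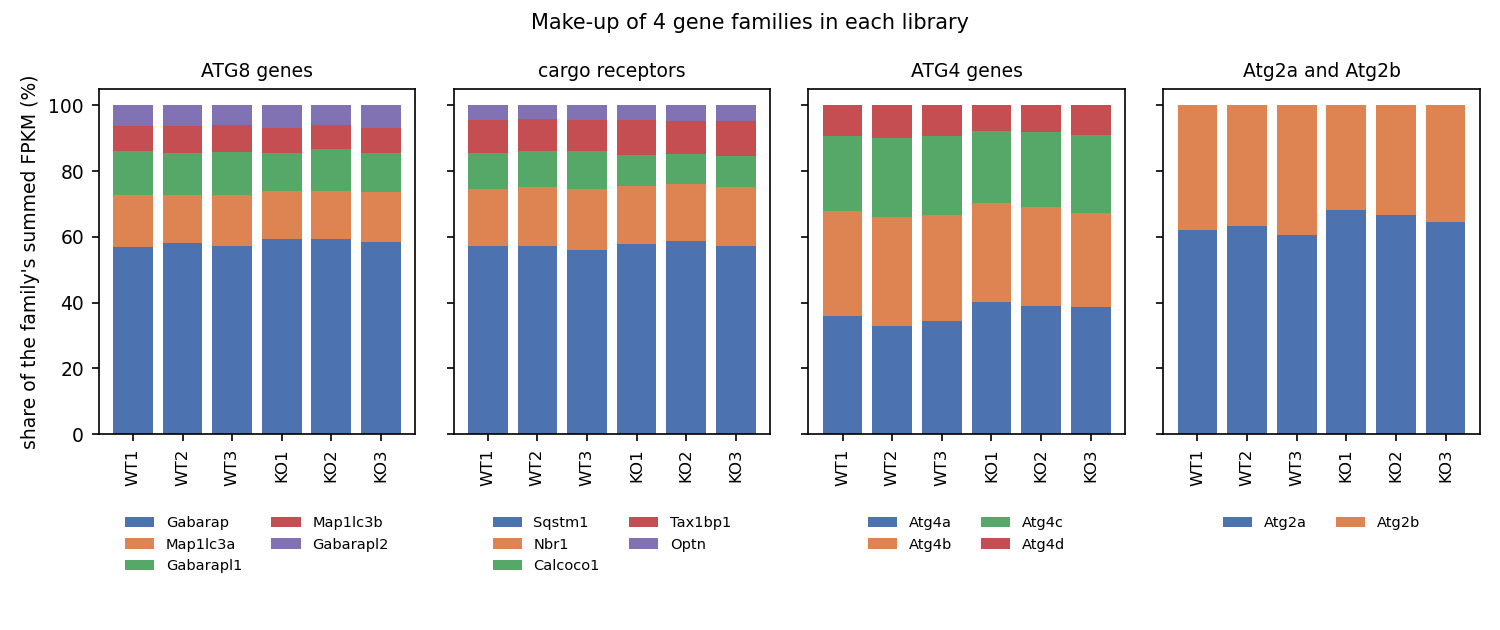
Share of each gene in the summed FPKM of its family (stacked bars, percent) in every library for 4 families. Atg4a, Atg2a, Gabarap and Tax1bp1 take a larger share in each of the 3 KO libraries than in any WT library. Calcoco1, Gabarapl1, Atg2b, Atg4b and Atg4d take a smaller share in each KO library than in any WT library.

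Among the cargo receptors Calcoco1 fell, Tax1bp1 lay near the threshold and the best known receptor gene, Sqstm1, was not called. Calcoco1 encodes a receptor related to NDP52 and TAX1BP1 that has been tied to the turnover of endoplasmic reticulum and Golgi membranes. It stood at 75.6, 74.6 and 75.6 CPM in the KO libraries and 91.9, 91.4 and 95.1 CPM in the WT libraries. The KO libraries were close together and all lower than the WT libraries. The log2 change was -0.30 ± 0.03, a ratio of 0.811 with a 95% interval of -0.38 to -0.23 on the log2 scale (edgeR, adjusted p = 8.01e-05), and it was called in all 15 alternatives. Calcoco1 made up 9.38, 8.95 and 9.41% of the receptors' summed FPKM in the KO libraries and 10.95, 11.2 and 11.5% in the WT libraries, shares that did not overlap. Those of Tax1bp1 were 10.8, 10.3 and 10.5% and 9.85, 9.501 and 9.67%, also apart (exact two-sided permutation test, p = 0.1 for each, the smallest possible, and 0.222 adjusted over the 20 shares).

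Tax1bp1, which encodes a receptor for ubiquitin-tagged protein aggregates, stood at 151, 149 and 147 CPM in the KO libraries and 144, 135 and 139.8 CPM in the WT libraries. All KO libraries were higher, KO replicate 3 and WT replicate 1 lying closest. Its log2 change of 0.09 ± 0.03 was not called (edgeR, adjusted p = 0.0586). In 7 of 15 alternatives it was, among them edgeR without TMM (log2 change 0.14, adjusted p = 0.0102), DESeq2 (0.0353) and edgeR without WT replicate 1 (0.0445), in a range up to 0.183. Sqstm1, which encodes p62, the receptor that is itself degraded by autophagy, stood at 273, 287 and 269 CPM in the KO libraries and 281, 274 and 272 CPM in the WT libraries. KO replicate 2 was its highest library, the groups overlapped, and the log2 change was 0.00 ± 0.03 with a 95% interval of -0.07 to 0.07 (edgeR, adjusted p = 0.971). Nbr1, a partner of p62, was at -0.05 ± 0.03 and Optn, which encodes the mitophagy receptor optineurin, at 0.06 ± 0.06, each with overlapping groups.

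Epg5, whose protein tethers finished autophagosomes to late endosomes and lysosomes, stood at 32.4, 33.6 and 30.0 CPM in the KO libraries and 33.1, 33.8 and 33.9 CPM in the WT libraries. KO replicate 3 was its lowest library. The log2 change of -0.07 ± 0.06 was not called (edgeR, adjusted p = 0.420).

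Per transcript length the members spanned a wide range of levels in both genotypes. Gabarap led at 162 ± 4.74 FPKM in KO and 155 ± 5.34 FPKM in WT (SD, n = 3), followed by Sqstm1 at 78.9 ± 3.09 and 76.1 ± 1.20 FPKM. Map1lc3a (40.3 ± 1.19 and 41.2 ± 1.36 FPKM) and Gabarapl1 (33.6 ± 2.16 and 35.5 ± 0.148 FPKM) came next, and their ranges did not touch. Vmp1, Wipi1 and Nbr1 followed, and in WT the libraries of Wipi1 (23.9, 24.4 and 24.9 FPKM) and Nbr1 (23.6, 23.4 and 24.8 FPKM) overlapped. At the low end stood Epg5 (3.05, 3.12 and 3.13 FPKM in WT), Atg16l1 (3.13, 2.85 and 2.69 FPKM) and, lowest of all, Atg4d (1.69, 1.87 and 1.74 FPKM). Each of the 5 ATG8 genes stood above each conjugation and ATG4 gene in every library. Summed over all 34 genes, the set reached 614, 631 and 609 FPKM in the KO libraries and 601, 616 and 608 FPKM in the WT libraries, and the groups overlapped.

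**Figure D4:**
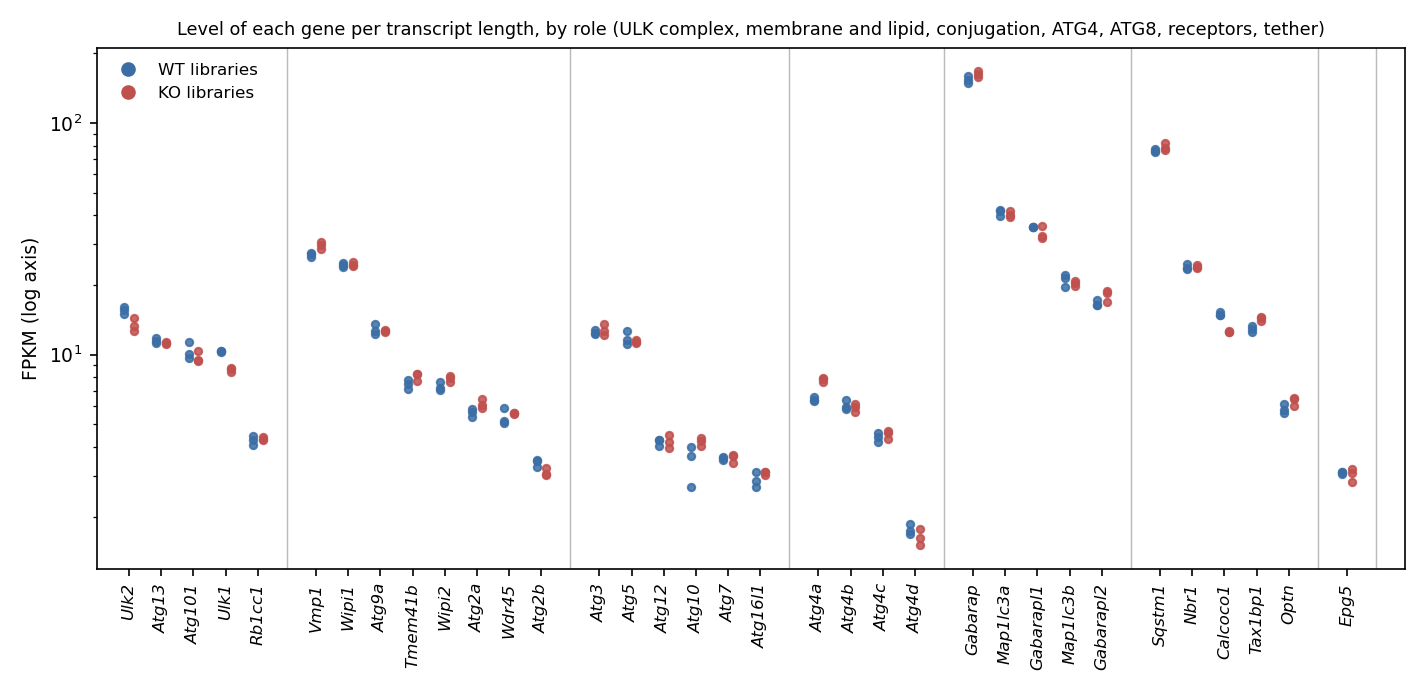
FPKM of each member in each library (dots) on a log axis, ordered within each role by mean level. Gabarap and Sqstm1 stand highest, Atg4d lowest, and KO and WT dots lie close together for most genes.

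The promoters of the 5 called genes are shown because these are the members that were called in the reported fit. The sequences are the 250 bases before the transcription start in RefSeq on build GRCm38.p6, written 5′ to 3′ on the strand of the gene. Capitals mark the GC box GGGCGG, the site of SP1-type factors, on either strand, so that CCGCCC is its reverse complement. They lie at chr5:110810082-110810331 (minus strand) for Ulk1, chr11:61855093-61855342 (minus strand) for Ulk2, chr12:105685242-105685491 (minus strand) for Atg2b, chr15:102722179-102722428 (minus strand) for Calcoco1 and chrX:140956657-140956906 (plus strand) for Atg4a, the last being the downstream one of the 2 starts listed for that gene.
Ulk1: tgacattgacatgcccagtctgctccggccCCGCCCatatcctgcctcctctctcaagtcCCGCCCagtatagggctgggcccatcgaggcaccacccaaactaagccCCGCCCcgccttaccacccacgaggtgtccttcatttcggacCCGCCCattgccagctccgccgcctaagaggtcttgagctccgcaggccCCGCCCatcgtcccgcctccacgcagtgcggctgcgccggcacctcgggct
Ulk2: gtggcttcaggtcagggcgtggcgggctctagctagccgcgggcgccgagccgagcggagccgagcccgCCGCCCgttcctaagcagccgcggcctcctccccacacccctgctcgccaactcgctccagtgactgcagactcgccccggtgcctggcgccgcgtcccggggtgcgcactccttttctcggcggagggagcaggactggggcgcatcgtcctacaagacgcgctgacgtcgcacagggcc
Atg2b: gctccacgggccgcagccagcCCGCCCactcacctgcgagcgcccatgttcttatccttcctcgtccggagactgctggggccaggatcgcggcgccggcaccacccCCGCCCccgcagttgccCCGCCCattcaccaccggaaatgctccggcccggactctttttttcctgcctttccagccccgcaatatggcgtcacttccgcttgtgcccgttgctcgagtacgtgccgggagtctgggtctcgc
Calcoco1: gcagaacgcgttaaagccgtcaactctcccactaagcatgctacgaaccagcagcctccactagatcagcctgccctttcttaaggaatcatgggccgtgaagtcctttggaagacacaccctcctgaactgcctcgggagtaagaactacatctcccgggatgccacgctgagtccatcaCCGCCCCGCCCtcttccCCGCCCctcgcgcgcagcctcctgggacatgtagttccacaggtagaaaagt
Atg4a: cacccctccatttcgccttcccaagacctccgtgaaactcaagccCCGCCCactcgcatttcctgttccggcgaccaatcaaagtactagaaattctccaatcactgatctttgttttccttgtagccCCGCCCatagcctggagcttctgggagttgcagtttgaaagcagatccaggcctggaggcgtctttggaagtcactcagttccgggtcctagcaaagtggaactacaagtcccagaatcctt

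Of the 34 members 29 had a promoter in the RefSeq table, the others being Rb1cc1, Atg12, Atg16l1, Map1lc3a and Epg5. The E-box CACGTG, the longer CLEAR element, which holds it and is bound by TFEB, the FOXO site GTAAACA and the ATF4 site TGATGCAA were searched on both strands of the 250 bases. None of the 4 occurred in the promoters of the 5 called genes. The E-box occurred before a RefSeq start of Atg3, Atg5 and Atg7, that is in 3 of 29 members, where 6.86% of 27025 genes held it. For Atg7 that start is an internal one. Its window (chr6:114670846-114671095, plus strand) lies inside the gene as placed by GENCODE release M21 (chr6:114643097-114860614). The CLEAR, FOXO and ATF4 sites occurred in none of the 29, and in 0.270, 3.54 and 0.918% of all genes. The GC box, searched after the values were seen, occurred in 5 of the 5 called genes, in 18 of 29 members and in 35.4% of all genes. The CCAAT box, also searched then, occurred in 1 of the 5 called genes, Atg4a, in 8 of 29 members and in 37.5% of all genes. For motifs, all genes means every gene with a start in the RefSeq table, whether or not its RNA was tested here. Whether a motif is tied to the changes was not tested. Ulk1 held 5 GC boxes, Calcoco1 and Atg2b 3 each (in Calcoco1 a pair overlaps), and Ulk2 1. Atg4a held 2 before its downstream start and 0 before the other, and the window of Ulk2 had 72.8% G and C. The genes themselves lie, in GENCODE release M21 on GRCm38, at chr5:110784488-110810097 (Ulk1), chr11:61775649-61855073 (Ulk2), chr12:105616136-105685211 (Atg2b), chr15:102706777-102722178 (Calcoco1) and chrX:140956907-141164270 (Atg4a). The starts of Ulk1, Ulk2 and Atg2b differ by some bases from those of RefSeq. For Calcoco1 and the downstream start of Atg4a they are the same. No member lies on chromosome 17 with Stk38.

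Other genes of the pathway were read for comparison from lists made with earlier results of these data known. Of the 8 genes of the Beclin-1 complex, which makes the lipid PI3P on the new membrane, 0 were called in edgeR, against 22.9% of all genes. The unadjusted p was under 0.05 for 1 of them. None of the complex's 3 genes of lowest p was called in any alternative. The median log2 change of the complex was -0.04. The 3 genes of lowest p there were Ambra1 (-0.11 ± 0.04), Rubcn (-0.08 ± 0.04) and Uvrag (-0.06 ± 0.05). Of the other selective autophagy receptors, most for organelles but some for glycogen, ferritin or protein aggregates, 4 were lower and 1 was higher of 15 tested (33.3%, against 22.9% of all genes), with a median of -0.05. The higher gene was Stbd1, which encodes a glycogen receptor. Retreg1, a receptor for endoplasmic reticulum, stood at 39.2 ± 3.26 against 54.3 ± 3.13 CPM (SD, n = 3), a log2 change of -0.47 ± 0.07. Ccpg1, another receptor for that membrane, changed by -0.24 ± 0.04, and the mitochondrial receptor Bnip3l by -0.24 ± 0.04 (edgeR, adjusted p = 5.78e-04, 9.19e-04 and 0.00271). These 3 were the genes of lowest p in the list. Sec62, Rtn3 and Tex264, also receptors for endoplasmic reticulum, were not called (log2 changes of -0.05 ± 0.04, -0.07 ± 0.03 and -0.00360 ± 0.05). Without a filter, limma on log2(FPKM + 1) did not call Bnip3l (adjusted p = 0.0649). Calcoco2, the gene of NDP52, had too few counts to test.

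Of the 11 genes of fusion and tethering 1 fell and 2 rose (27.3%, against 22.9% of all genes), with a median of -0.00647. The SNARE gene Ykt6 changed by -0.18 ± 0.03, the HOPS tether gene Vps41 by 0.17 ± 0.03 and the transport adaptor Fyco1 by 0.19 ± 0.05 (edgeR, adjusted p = 8.74e-04, 0.00328 and 0.0174). The call of Fyco1 was lost when KO replicate 1 was left out (adjusted p = 0.0752) and likewise for WT replicate 2 (0.0617). Of the 19 upstream regulators 4 fell and 4 rose (42.1%, against 22.9% of all genes), with a median of 0.05. Deptor, an inhibitor of the kinase mTOR, which holds back the ULK complex, stood at 22.0 ± 1.34 against 46.8 ± 2.62 CPM (log2 change -1.09 ± 0.06). The sestrin genes, whose proteins restrain mTORC1 under stress, went opposite ways, Sesn2 at 86.9 ± 4.15 against 58.6 ± 2.37 CPM (0.57 ± 0.05) and Sesn1 at 51.0 ± 1.81 against 72.3 ± 2.99 CPM (-0.50 ± 0.05). Adjusted p for these 3 genes was 9.55e-07, 1.03e-05 and 2.21e-05 in edgeR. Whether the share of calls differs between these lists was not tested.

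Calls near the threshold and the sign of small changes depended in part on the scaling of the libraries. After TMM 21 members had a log2 change below 0 and 13 above, and on library totals without TMM 14 were below and 20 above. The same shift applied to all genes, whose median log2 change was 0.00380 with TMM and 0.0522 without it. Of all calls 49% were higher in KO with TMM and 63% without it (64.4% with limma on log2(FPKM + 1)), and in the members the 4 lower and 1 higher calls became 3 and 3. Ulk1, Calcoco1 and Atg4a were called in all 15 alternatives, Ulk2 in 14 and Atg2b in 6. The log2 change ran from -0.32 to -0.24 for Ulk1, from -0.31 to -0.24 for Calcoco1 and from 0.22 to 0.28 for Atg4a.

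**Figure D5:**
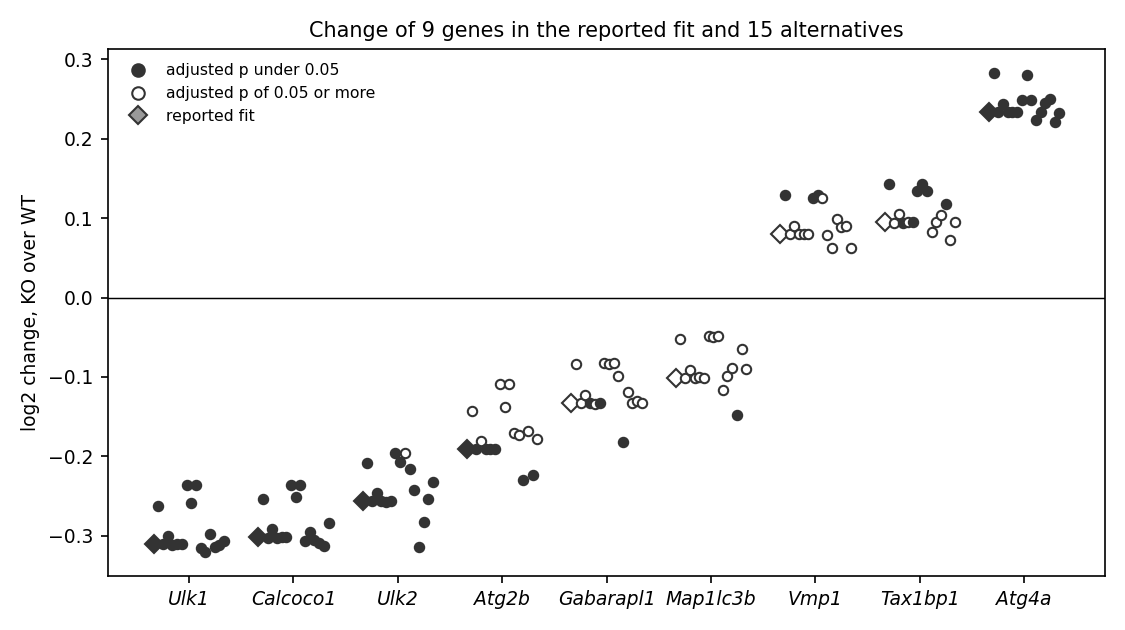
Log2 change of 9 members in the reported fit (diamond) and 15 alternatives (circles), filled where the adjusted p was under 0.05. Ulk1, Calcoco1 and Atg4a are filled throughout, Ulk2 has 1 open mark, and Atg2b, Gabarapl1, Map1lc3b, Vmp1 and Tax1bp1 hold both filled and open marks.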

How the data were processed

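Polyadenylated RNA of 6 libraries, 3 KO and 3 WT, was sequenced. Per the file headers, the authors deposited 1 table with a count per gene and library (whole numbers) and an FPKM per gene and library, scaled by the authors to transcript length and library total. How reads were counted, and whether by strand, was not stated in any source at hand. The submitters' processing notes name cutadapt 1.9, HISAT2 2.0.4 and StringTie 1.3.4d, and list a human build although the identifiers are of mouse, so the table's own coordinates were not used.

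Groups came from the sample titles. The quasi-likelihood test of edgeR 4.0.16 (R 4.3.3) was run two-sided on counts with TMM scaling and genotype as the only term, after filterByExpr had kept 18221 genes, with Benjamini-Hochberg adjustment over all of them. Each SE is the size of a log2 change divided by the root of its F statistic. Alternatives used DESeq2 1.42.0, limma 3.58.1 on log2(FPKM + 1) or log2(FPKM + 0.1), keeping genes that averaged 1 FPKM or more, or all, other scalings, a replicate block and each library left out. The fit was tested on simulated data. Counts of single members ran from 336 to 23789 per library. The members, lists and motifs were chosen with earlier results of these data known.

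Values per library are given at least for members called, members called in 3 or more alternatives, the ATG8 genes, Sqstm1, Atg5 and Atg16l1. Of each other pathway list the 3 genes of lowest p are named, with log2 changes or group means. Replicates of a group differed by more than counting noise, and none was a repeat of another.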

Additional observations from a re-analysis of the deposited data

How the results depend on the processing

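Between 4 and 7 members were called under the 15 alternatives, against 5 in the reported fit, and between 3308 and 4555 genes in all, against 4179. Of 510 single results (34 members under 15 alternatives), 486 kept their side of the threshold, 10 lost a call, 14 gained one, and none that was called changed direction, while 43 values of uncalled members changed sign. The median log2 change of the members moved from -0.04 to 0.00792 on library totals without TMM, to 0.00750 in limma on log2(FPKM + 1) with or without a filter, and to 0.00828 with a pseudocount of 0.1. These settings have in common that libraries are scaled to their totals.

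With a replicate block, 5 members and 3888 genes in all were called, and the block changed no member's call. Same-numbered libraries did not deviate together (correlations of -0.0445, -0.0301 and -0.0069), and no library correlated best with its own number. Leaving out 1 library at a time gave 4 to 6 called members and a median from -0.04 to -0.02. Exact permutation of 3 against 3 libraries cannot give a p under 0.1, so no share could pass at 0.05. Atg10, Atg4d and Atg101, with the widest intervals, are where 3 libraries limit the result most.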

Other observations

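Some relatives of the members lie outside the set. Atg9b, a paralog of Atg9a, stood at 0.234 ± 0.194 CPM in KO and 0.157 ± 0.199 CPM in WT (SD, n = 3) and had too few counts to test. Atg16l2, a paralog of Atg16l1 known chiefly from blood cells, stood at 10.99, 12.0 and 12.0 CPM in the KO libraries and 10.5, 10.2 and 9.46 CPM in the WT libraries. Its KO libraries were all higher, but the log2 change of 0.22 ± 0.08 was not called (edgeR, adjusted p = 0.0983). Of 15 macrophage markers 14 were called higher in KO, and a link between them and Atg16l2 was not tested. The processed copy Tmem41b-ps held 0.241 ± 0.118 against 0.235 ± 0.196 CPM, far below Tmem41b.

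Several members share exons with a gene on the opposite strand, where counts without strand would mix the 2. Gskip, which overlaps Atg2b, stood at 31.0 ± 0.629 against 28.7 ± 1.34 CPM (log2 change 0.11 ± 0.06, not called in edgeR, adjusted p = 0.184). Kri1, which overlaps Atg4d, stood at 16.9 ± 2.22 against 12.6 ± 1.88 CPM and rose (0.42 ± 0.12, adjusted p = 0.0346 in edgeR). Zcchc14, which overlaps Map1lc3b, stood at 91.4 ± 3.19 against 129.5 ± 2.09 CPM and fell (-0.50 ± 0.03, adjusted p = 2.88e-06 in edgeR). The overlaps were read from GENCODE release M21, which may not be the annotation used for counting. These neighbours were named after their values were seen. How far reads of any such pair were mixed was not tested.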
